A study of Mus musculus with 6 samples.

Results

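Olfr78, 4 regulators of G protein signalling (Rgs2, Rgs4, Rgs5 and Rgs16) and the stimulatory G protein alpha subunits Gnas and Gnal were followed in the carotid body, the small organ beside the carotid artery that senses blood oxygen. Every probe set whose platform annotation gives 1 of these 7 symbols and no other was taken, which gave 26 of the 45101 probe sets on the Affymetrix Mouse 430 2.0 array, for 7 of the 18194 genes it names alone. Within a gene, probe sets were taken by name alone, but the 7 genes were chosen with earlier results of these data known. Carotid bodies were taken from untreated males of 2 inbred mouse strains, A/J and DBA/2J (Jackson Lab), aged 28 days. The 3 A/J arrays were hybridised with RNA pooled from 20, 21 and 19 mice (40, 42 and 38 carotid bodies). The 3 DBA/2J arrays held pools of 19, 18 and 19 mice (38, 36 and 38 carotid bodies). The comparison asks which of these genes differ between the carotid bodies of 2 strains that are known to differ in their breathing response to hypoxia.

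Type I (glomus) cells of the carotid body release transmitter when arterial oxygen falls. Olfr78 is a G protein-coupled receptor of the olfactory receptor family that is expressed in glomus cells and responds to short carboxylic acids, among them acetate, propionate and, by some reports, lactate. Olfactory receptors couple to Gnal (G alpha olf) or, outside the nose, to Gnas (G alpha s), and both raise cAMP through adenylate cyclase. RGS proteins speed up GTP hydrolysis by G alpha subunits and so end signals from Gi- and Gq-coupled receptors. Rgs4, Rgs5 and Rgs16 proteins start with a cysteine that is oxidised in an oxygen-dependent way by the dioxygenase Ado, arginylated by Ate1 and then degraded. In other tissues Rgs5 is best known as a marker of pericytes, the contractile cells around capillaries. RNA was taken from the whole organ, so no signal can be assigned to 1 cell type, and fewer cells of a type cannot be told apart from less RNA per cell.

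The 4 RGS genes all lie on mouse chromosome 1, and Rgs4 and Rgs5 are neighbours there. Because Rgs4 and Rgs5 had probe sets called higher in DBA/2J and Rgs2 and Rgs16 had none, the 250 bases before the transcription start of each are shown, 5′ to 3′ on the gene's own strand. They come from RefSeq (GRCm38.p6, the C57BL/6J genome, so neither strain studied here), in which 5 of the 7 genes had a promoter entry. Capitals mark the letters TGACG, the core of the cAMP response element bound by CREB, or CCAAT, the box bound by the factor NF-Y, each on either strand. The windows are chr1:169747643-169747892 (minus strand) for Rgs4, chr1:169655251-169655500 (plus) for Rgs5, chr1:144004150-144004399 (minus) for Rgs2 and chr1:153740103-153740352 (plus) for Rgs16.
Rgs4: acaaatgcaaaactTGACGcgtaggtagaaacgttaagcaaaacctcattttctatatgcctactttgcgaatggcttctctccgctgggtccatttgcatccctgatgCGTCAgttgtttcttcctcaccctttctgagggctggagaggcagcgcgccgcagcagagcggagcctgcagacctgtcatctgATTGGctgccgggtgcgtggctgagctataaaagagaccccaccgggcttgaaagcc
Rgs5: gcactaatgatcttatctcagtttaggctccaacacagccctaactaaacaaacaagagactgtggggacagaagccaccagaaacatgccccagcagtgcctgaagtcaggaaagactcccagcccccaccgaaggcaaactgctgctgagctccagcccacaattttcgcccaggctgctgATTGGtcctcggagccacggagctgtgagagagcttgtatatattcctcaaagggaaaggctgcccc
Rgs2: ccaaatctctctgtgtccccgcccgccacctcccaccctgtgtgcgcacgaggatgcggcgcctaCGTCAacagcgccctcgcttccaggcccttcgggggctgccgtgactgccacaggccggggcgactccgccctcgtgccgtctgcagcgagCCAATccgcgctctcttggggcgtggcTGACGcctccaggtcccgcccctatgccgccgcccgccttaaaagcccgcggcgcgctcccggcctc
Rgs16: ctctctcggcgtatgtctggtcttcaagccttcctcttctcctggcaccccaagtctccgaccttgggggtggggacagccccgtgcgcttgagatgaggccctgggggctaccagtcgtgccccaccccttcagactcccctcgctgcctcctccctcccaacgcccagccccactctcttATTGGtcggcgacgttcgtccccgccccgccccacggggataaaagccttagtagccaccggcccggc

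A CCAAT box stood in all 4 windows, with its first base 57 (Rgs4), 67 (Rgs5), 94 (Rgs2) and 68 (Rgs16) bases before the start. Of all 32851 promoter windows of this length, 33.8% hold one. TGACG occurred 2 times in Rgs4 and 2 times in Rgs2, and was not found in the windows of Rgs5 and Rgs16, against 17.8% of all windows. The letters ACGTG, the core bound by hypoxia-inducible factors, were in none of the 4 windows and in 16.6% of all windows. TATAAA was found in Rgs4, 31 bases before the start, and in 12.4% of all windows. The E-box letters CANNTG were found 4 times in Rgs4, not in the other 3 windows, and in 66.2% of all windows. Such matches describe letters of the reference strain and do not show binding.

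Deposited signals are linear, and differences between strains were tested on log2(signal + 16). Of the 26 probe sets, 19 lay in the brighter 60% of the array and were tested; the other 7 were too dim and are given by their values. In the test across all 27022 kept probe sets (limma, Benjamini-Hochberg adjusted p under 0.05), 7 of the 19 were higher in DBA/2J, 0 were lower and 12 did not pass, where 1.86% of all probe sets were called higher, 1.41% lower and 3.27% either way. The 7 belong to Olfr78 (3), Rgs4 (1) and Rgs5 (3), so they are not independent of each other. In 8 of the 19 the 3 DBA/2J arrays lay above the 3 A/J arrays, against 11.5% of all kept probe sets, and in 0 did they lie below, against 9.54% (21.1% either way). The pools, not mice, are the replicates, and their number limits the precision of every value.

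**Figure D1:**
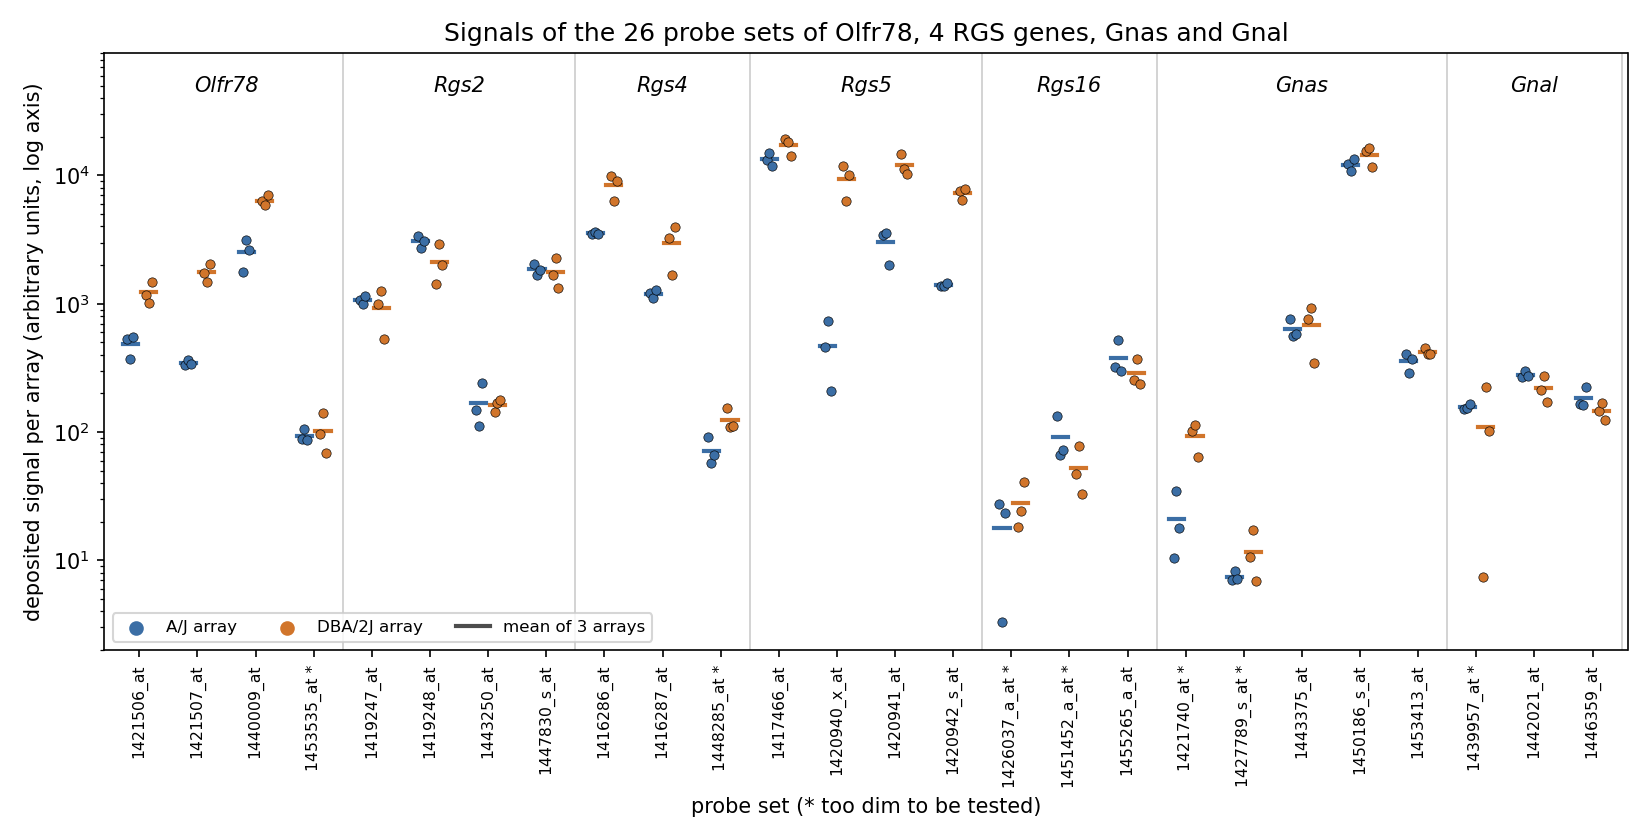
Deposited signal on each array (vertical log axis, arbitrary units) for the 26 probe sets, grouped by gene; points are arrays, bars the means of 3 arrays, and an asterisk marks probe sets too dim to be tested. The DBA/2J points stand above the A/J points in 3 probe sets each of Olfr78, Rgs4 and Rgs5. They also do so in the dim 1421740_at of Gnas. The strains overlap in the other Gnas probe sets and throughout Rgs2, Rgs16 and Gnal.

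Olfr78 was higher in the DBA/2J pools on each of its 3 tested probe sets. On 1440009_at, the brightest, the A/J arrays gave 1774, 3118 and 2637 and the DBA/2J arrays 6279, 5834 and 6977. The lowest DBA/2J array was thus well above the highest A/J array. The means were 2510 ± 681 and 6363 ± 577 (SD, n = 3 pools), a log2 difference of 1.37 with an SE of 0.22 (limma adjusted p = 0.0113).

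The other tested Olfr78 probe sets kept that order. On 1421506_at the A/J arrays gave 528.8, 369.7 and 548.6 and the DBA/2J arrays 1172, 1018 and 1484, a log2 difference of 1.32 (SE 0.23, limma adjusted p = 0.0165). The ratio of means was 2.54 on both 1421506_at and 1440009_at. On 1421507_at the A/J arrays were close together at 335.9, 367.5 and 341.3, and the DBA/2J arrays gave 1739, 1477 and 2040. That is a ratio of 5.03 and a log2 difference of 2.27 (SE 0.19, limma adjusted p = 0.000463), the largest of the 3. The strains did not overlap on any of them. A further probe set, 1453535_at, was dim on every array, from 68.3 to 141.9, and its strains overlapped.

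The strain difference on 1421507_at was larger than that on 1440009_at, although 1421507_at was the dimmer on every array. The log2 value of 1421507_at minus that of 1440009_at spanned -3.03 to -2.35 on the A/J arrays and -1.97 to -1.77 on the DBA/2J arrays. Their strain differences thus differed by 0.90, with an exact permutation p of 0.1, the smallest that 3 arrays against 3 can give (0.24 after adjustment over 12 such pairs of probe sets). In these pools the fold of Olfr78 differed between probe sets, while its direction was the same on the 3 tested ones.

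Support for Olfr78 was not equal over the probe sets when arrays were left out. The call on 1421507_at was made without each of the 6 arrays in turn. The call on 1440009_at was lost without DBA/2J array 1 (log2 difference 1.38, limma adjusted p = 0.0628). The call on 1421506_at was lost without A/J array 1 (1.39, limma adjusted p = 0.0551), DBA/2J array 1 (1.34, limma adjusted p = 0.0783) or DBA/2J array 3 (1.17, limma adjusted p = 0.0632). With A/J array 2 as the only A/J array, the one with the least skeletal muscle signal, the 3 log2 differences were 2.19, 1.02 and 1.67 for 1421507_at, 1440009_at and 1421506_at, and none passed (limma adjusted p = 0.0661, 0.285 and 0.155).

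Rgs4, which in neurons is known to dampen Gq and Gi signals, was higher in DBA/2J. On 1416286_at the A/J arrays were nearly equal at 3525, 3599 and 3466, and the DBA/2J arrays gave 9953, 6275 and 9066. All DBA/2J arrays lay above all A/J arrays, and DBA/2J array 2 was the lowest of them. The means were 3530 ± 66.3 and 8431 ± 1919 (SD, n = 3), a log2 difference of 1.23 (SE 0.19, limma adjusted p = 0.0106).

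On 1416287_at the same gene gave 1208, 1118 and 1270 in A/J and 3275, 1661 and 3938 in DBA/2J. The strains did not overlap, but DBA/2J array 2 was less than 1.5-fold above each A/J array, and the log2 difference of 1.20 (SE 0.30) did not pass (limma adjusted p = 0.0693). Without that array it was 1.57 (limma adjusted p = 0.00224). A dim probe set of Rgs4, 1448285_at, also did not overlap, with 90.8, 57.2 and 66.8 in A/J and 152.9, 108.6 and 111.9 in DBA/2J. The call on 1416286_at was lost without A/J array 1, A/J array 3 or DBA/2J array 1, with log2 differences of 1.22, 1.21 and 1.09 (limma adjusted p = 0.0535, 0.0562 and 0.0637).

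Rgs5 gave the largest differences of the set, and its 4 probe sets disagreed in size. On 1417466_at, the brightest, the A/J arrays gave 13298, 15044 and 11768 and the DBA/2J arrays 19396, 18130 and 14293. Here the strains overlapped, since DBA/2J array 3 was below A/J array 2, and the log2 difference of 0.36 did not pass (SE 0.16, 95% interval -0.0077 to 0.74, limma adjusted p = 0.339). This is the 1 probe set of Rgs5 that the annotation ties to its RefSeq mRNA.

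The other 3 Rgs5 probe sets are annotated with another GenBank record and were far apart between strains. On 1420942_s_at the A/J arrays gave 1369, 1377 and 1451 and the DBA/2J arrays 7623, 6472 and 7813, a ratio of means of 5.22 (log2 difference 2.37, SE 0.16, limma adjusted p = 0.000189). On 1420941_at A/J gave 3447, 3584 and 2021 and DBA/2J 14774, 11190 and 10178, a ratio of 3.99 (log2 difference 2.02, SE 0.25, limma adjusted p = 0.00271). On 1420940_x_at A/J gave 463.5, 733.2 and 210.1 and DBA/2J 11925, 6312 and 10067, a ratio of 20.1 (log2 difference 4.40, SE 0.41, limma adjusted p = 0.000754). No array overlapped on these, and each call was made without any 1 of the 6 arrays. By Affymetrix naming, the suffix x marks probes that may bind other sequences and s a probe set shared by several transcripts.

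The gap between the Rgs5 probe sets was itself larger than the spread between pools. Against 1417466_at, the strain difference was larger by 4.03 on 1420940_x_at, by 2.00 on 1420942_s_at and by 1.65 on 1420941_at. In each case the arrays of the strains did not overlap, with an exact permutation p of 0.1, the smallest possible, and 0.24 after adjustment over the 12 pairs compared, each tested probe set against the brightest of its gene. The mean of all 4 probe sets gave a log2 difference of 2.29 (limma adjusted p = 0.000599). The size of the Rgs5 difference thus differed between probe sets in these pools. Probe sequences and strain genotypes were not used here, so the disagreeing probe sets of Rgs5 and Olfr78 were not placed on transcripts, and whether a strain's own sequence alters their binding was not tested. Quantile normalization gave 0.52 on 1417466_at (limma adjusted p = 0.0447) and array weights 0.53 (limma adjusted p = 0.0396).

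**Figure D2:**
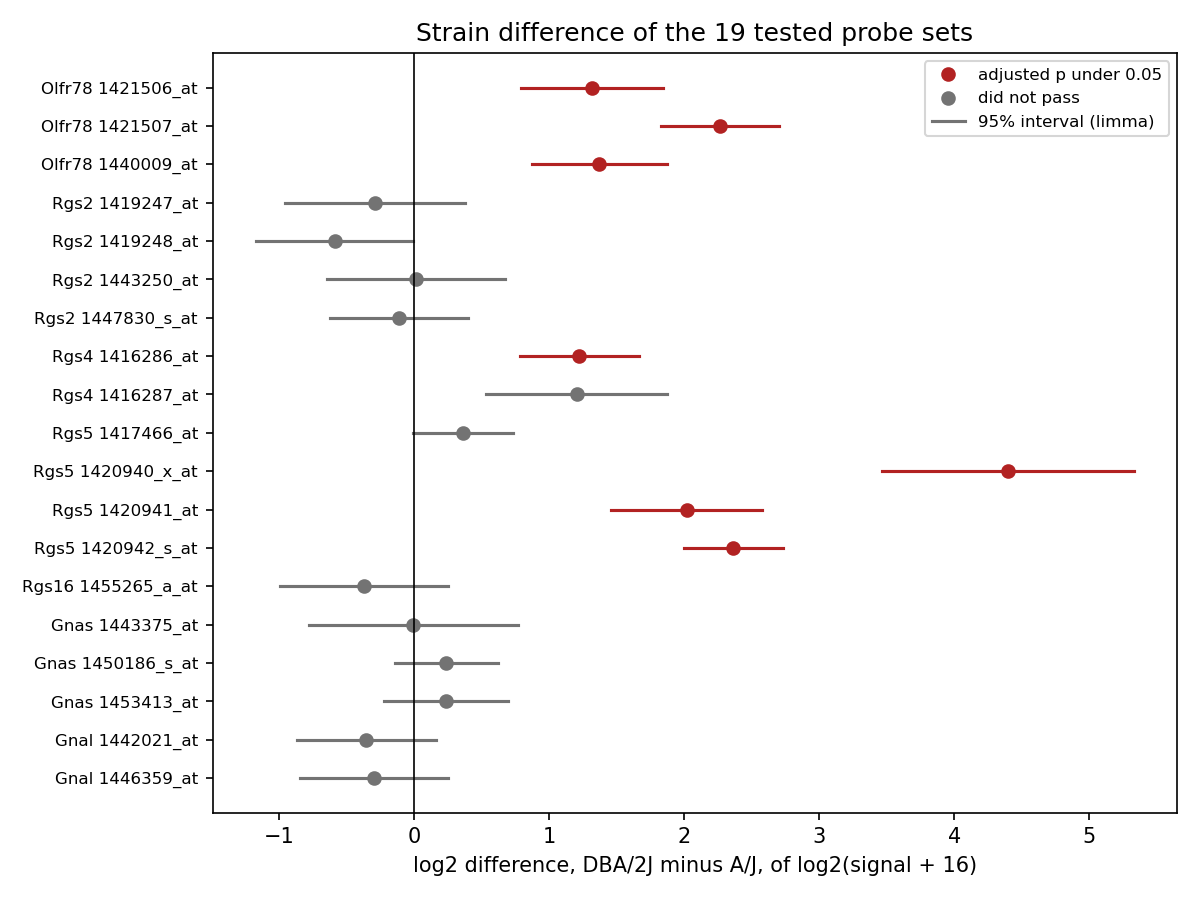
Log2 difference, DBA/2J minus A/J, of each tested probe set (points) with its 95% interval from limma (lines); red marks an adjusted p under 0.05. The 7 red points belong to Olfr78, Rgs4 and Rgs5 and run from 1.23 to 4.40, while 1417466_at of Rgs5 sits at 0.36.

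Rgs2, which is selective for Gq and is quickly induced by cAMP and other stimuli in many cells, did not pass on any of its 4 probe sets. On 1419248_at, the brightest, A/J gave 3390, 2736 and 3076 and DBA/2J 1424, 2920 and 2013. DBA/2J array 2 lay among the A/J arrays and the other DBA/2J arrays lay below them, with a log2 difference of -0.59 (95% interval -1.17 to -0.0057, limma adjusted p = 0.319). With array weights it was -0.94 (limma adjusted p = 0.0225). The remaining probe sets gave -0.29 (1419247_at), -0.11 (1447830_s_at) and 0.016 (1443250_at), with intervals that together ran from -0.96 to 0.68.

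Rgs16, another short RGS protein with the cysteine start, was dim. Of its 3 probe sets only 1455265_a_at was tested, with 321.5, 521.6 and 296.5 in A/J and 252.7, 372.8 and 235.6 in DBA/2J. The strains overlapped, and the log2 difference was -0.37 (95% interval -0.99 to 0.25, limma adjusted p = 0.617). The dim 1451452_a_at lay between 66.8 and 134.4 on the A/J arrays, and the DBA/2J arrays spanned 32.8 to 77.7. The dim 1426037_a_at stayed at or under 41.1 on all 6 arrays.

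Gnas, whose product couples receptors to adenylate cyclase in nearly all cells, was bright, and no tested probe set passed. On 1450186_s_at A/J gave 12201, 10874 and 13375 and DBA/2J 15369, 16326 and 11674. The strains overlapped, since DBA/2J array 3 lay among the A/J arrays, and the log2 difference was 0.24 (95% interval -0.14 to 0.62, limma adjusted p = 0.584). The other tested probe sets gave 0.24 (1453413_at, limma adjusted p = 0.671) and -0.0037 (1443375_at, limma adjusted p = 0.998). Gnas is an imprinted locus with several promoters, and the array does not separate the alleles. A dim probe set, 1421740_at, was the exception: A/J gave 10.4, 35 and 17.9 and DBA/2J 101.4, 113.9 and 64, without overlap. When dim probe sets were also tested, it had a log2 difference of 1.58 and did not pass (limma adjusted p = 0.0714), where 1.05% of probe sets were called higher and 0.768% lower. The dim 1427789_s_at stayed at or under 17.3 on all arrays, with overlap.

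Gnal, the olfactory alpha subunit, had low signals that overlapped between strains. On 1442021_at A/J gave 268.7, 297.5 and 274.8 and DBA/2J 212.5, 275.6 and 171.9, a log2 difference of -0.35 (95% interval -0.86 to 0.16, limma adjusted p = 0.544). On 1446359_at it was -0.29 (95% interval -0.84 to 0.25, limma adjusted p = 0.656). Another, dim probe set, 1439957_at, spanned 151.4 to 166.4 on the A/J arrays, while DBA/2J had 7.4, 222.5 and 101.1. Without detection calls, it is not known whether signals this low are above background.

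Several lists of cell type markers also differed between the pools of the strains, in either direction. Over 27 tested type I cell markers, the mean log2 value was 10.05, 10.07 and 10.32 on the A/J arrays and 11.02, 11.14 and 11.28 on the DBA/2J arrays. Of the 27, 10 were called higher (5 without A/J array 1 or DBA/2J array 1, 6 without DBA/2J array 3) and 0 lower, with a median log2 difference of 0.88 against 0.025 over all 13006 genes tested, of which 2.17% were called higher, 1.6% lower and 3.77% either way. Among them were Chga (2.37) and Chgb (1.60), granins of the dense-core vesicle, Insm1 (2.93), a factor of neuroendocrine cells, and Scg2 (1.71), a secretogranin. Th, the first enzyme of dopamine synthesis, had 0.88 and did not pass (limma adjusted p = 0.131).

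Over 18 skeletal muscle markers the mean log2 value was 12.73, 11.03 and 12.46 on the A/J arrays against 6.37, 7.44 and 6.38 on the others, and all 18 were called lower, led by Ckm, Mylpf, Pvalb and Acta1 (-6.34, -5.85, -4.90 and -6.05). Also called lower were 3 of 12 adipocyte markers, Dio2 (-1.45), Fabp4 (-0.77) and Ucp1 (-1.31), and 2 of 12 glial markers, Ugt8a (-2.22) and Scn7a (-0.74). Over 18 pericyte and smooth muscle markers 0 were called (7 had an unadjusted limma p under 0.05, as did 17.1% of all genes). The array means overlapped, A/J spanning 10.47 to 10.88 and DBA/2J 10.59 to 10.73. That mean averages opposite moves. In 4 of the 18 the DBA/2J arrays lay above the A/J arrays, among them Ndufa4l2, and in 4 below, among them Cspg4. Of all kept probe sets 11.5% lay above and 9.54% below. Pdgfrb, a receptor used as a pericyte marker, had 0.64 (limma adjusted p = 0.285), with another probe set at 1.26 (limma adjusted p = 0.327). The proteoglycan Cspg4 had -0.31 (limma adjusted p = 0.491), with another probe set at -0.25 (limma adjusted p = 0.623). Ndufa4l2, a mitochondrial protein of pericytes and hypoxic cells, had 0.89 (limma adjusted p = 0.0667). Markers of endothelium, ganglion neurons and leukocytes and immediate-early genes had 0 calls, with 5 of 15, 3 of 11, 2 of 9 and 4 of 21 at an unadjusted limma p under 0.05. The immediate-early genes Fos and Egr1 had 0.27 and -0.37. Array means of the strains did not overlap for the type I list, higher in DBA/2J, nor for the skeletal muscle, adipocyte (11.58 to 12.21 against 10.53 to 11.20) and glial lists (10.82 to 11.11 against 10.36 to 10.48), lower in DBA/2J. The part of these lists in the members' calls was not tested.

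Each tested probe set was therefore also set against the mean of the type I cell markers on the same array. The log2 differences of the 27 markers in that mean ran from -0.59 (Pcsk1) to 2.93 (Insm1), 24 positive and 3 negative. It therefore gives no value per type I cell. Against that mean, Olfr78 on 1440009_at stood 0.37 higher in DBA/2J and on 1421506_at 0.32 higher, with overlapping strains (exact permutation p = 0.3 and 0.2). The probe set 1421507_at stood 1.27 higher without overlap. Rgs4 stood 0.23 (1416286_at) and 0.21 (1416287_at) higher, with overlap (exact permutation p = 0.4 and 0.6). The type I marker mean itself stood 1.00 higher in DBA/2J.

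Rgs5 did not follow the type I mean in one way. It stood 3.40, 1.37 and 1.02 above that mean in DBA/2J on 1420940_x_at, 1420942_s_at and 1420941_at, without overlap. On 1417466_at it stood at -0.63, with overlap. The 10 tested probe sets of Rgs2, Rgs16, Gnas and Gnal lay lower in DBA/2J than in A/J relative to the type I mean, with no overlap. They ran from -1.58 (Rgs2 1419248_at) to -0.76 (Gnas 1450186_s_at). In plain signals the strains overlapped on all of them. The type I mean itself stood 1.00 higher in DBA/2J, so a probe set with no strain difference would also lie about 1.00 lower here. The share of all kept probe sets without overlap on this scale was not computed, so the lack of overlap is no separate result about these 10 probe sets. For every probe set without overlap the exact permutation p was 0.1, the smallest possible, and 0.136 after adjustment over the 19. The 5 dim probe sets of these genes were not set against the markers; of them, Gnas 1421740_at had the higher signals in DBA/2J given above.

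Relative to the pericyte and smooth muscle mean, the picture was close to that of the plain signals. That mean differed by only -0.06 between strains and averages markers that moved in opposite directions, so it gives no value per pericyte. The 8 probe sets without overlap are those without overlap in the plain signals and are no separate result. Olfr78 stood 1.38 to 2.33 higher in DBA/2J, Rgs4 1.26 and 1.29 higher, and 3 probe sets of Rgs5 2.08 to 4.46 higher, all without overlap. Rgs5 on 1417466_at was at 0.42 and overlapped. The tested probe sets of Rgs2, Rgs16, Gnas and Gnal lay between -0.53 and 0.30, and all overlapped. The smallest exact permutation p was 0.1, and 0.238 after adjustment over the 19.

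**Figure D3:**
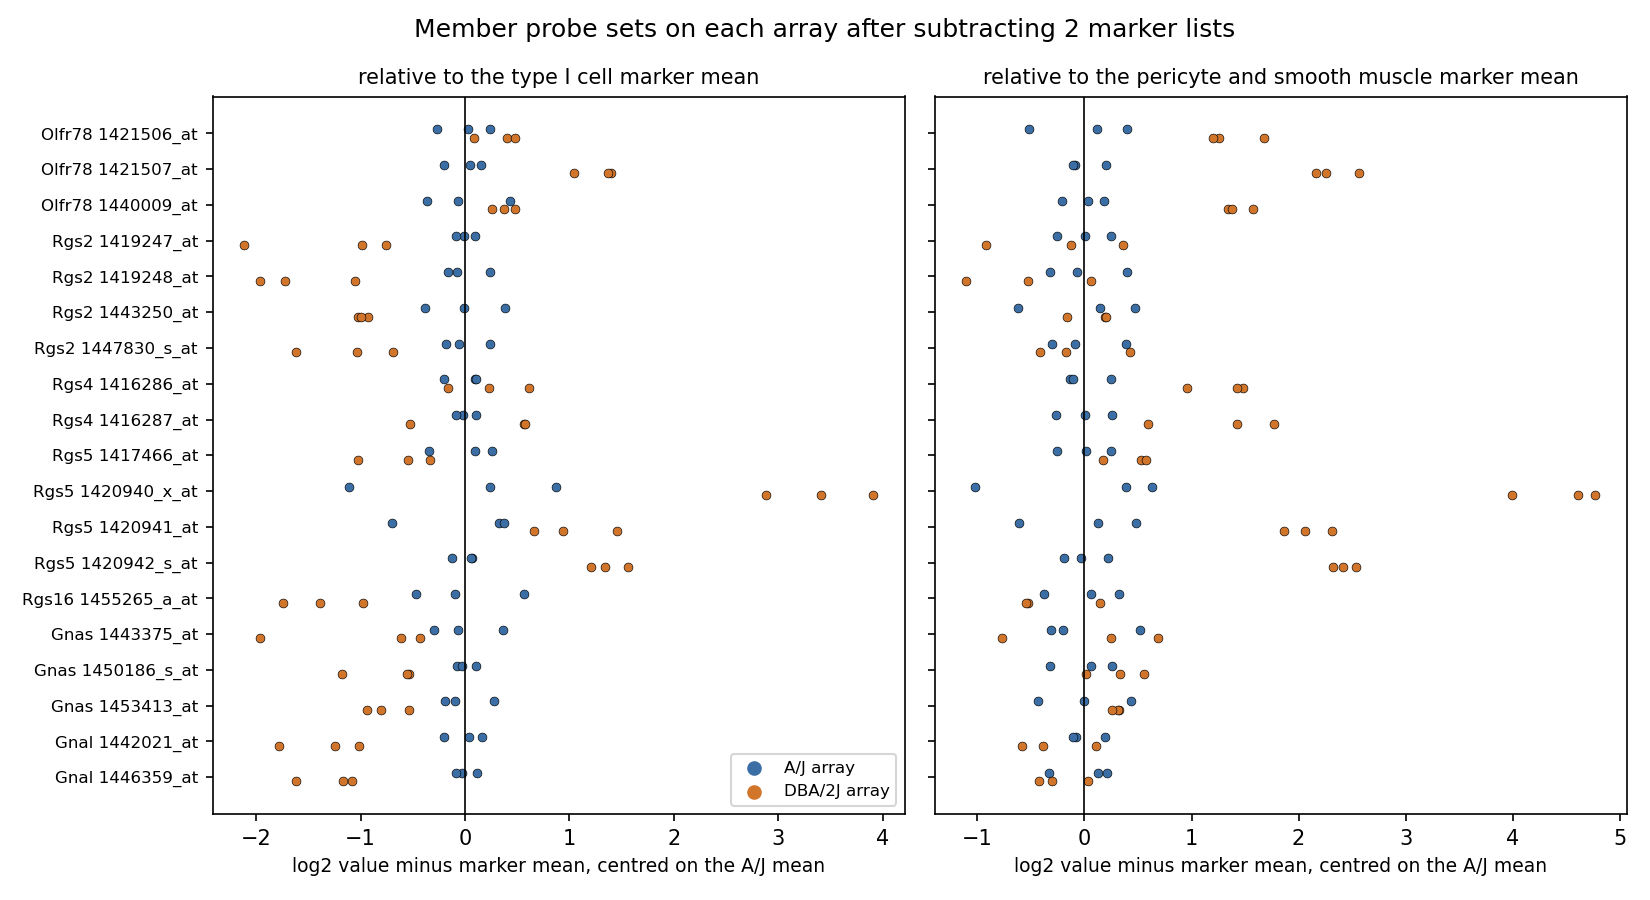
Log2 value of each tested probe set minus the mean of the type I cell markers (left) or of the pericyte and smooth muscle markers (right) on the same array, centred on the A/J mean; points are arrays. On the left, the DBA/2J points of Rgs2, Rgs16, Gnas and Gnal lie to the left of the A/J points and Rgs4 overlaps. The type I mean subtracted there is itself 1.00 higher in DBA/2J, so that shift to the left is no separate result. On the right, Rgs4 and Olfr78 stand apart by 1.26 to 2.33.

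The 7 lists of related genes, named signalling lists here, include chromosomal neighbours of Gnas and the pathway that degrades Rgs4, Rgs5 and Rgs16 proteins. In them 2 of 78 tested genes were called, both higher. These were Gnb3 and Nelfcd, the latter listed only as a neighbour of Gnas. Of all genes 3.77% were called either way, so the share was near that of all genes. The unadjusted counts below stand beside 17.1% of all genes. Of 16 other RGS genes tested, 0 were called and 4 had an unadjusted limma p under 0.05, with a median log2 difference of 0.011 (range -0.47 to 0.90). Rgs17, an RGS protein that acts on Gz and Gi, was the highest at 0.90 (limma adjusted p = 0.117), with a further probe set at 0.90. Rgs7, which works bound to Gnb5 in neurons, had -0.47 (limma adjusted p = 0.251). Rgs3 at -0.15, Rgs9 at 0.20 and Rgs10 at -0.10 did not pass either.

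Of 11 other G alpha subunits, 0 were called (2 at an unadjusted limma p under 0.05), with a median of -0.047. Gnai2, an inhibitory alpha subunit, had -0.14, with another probe set at 0.96, while Gnaq had 0.098 and Gnao1, the Go subunit of neurons, had -0.020. Of 14 beta and gamma subunits 1 rose: Gnb3, a beta subunit best known in cone photoreceptors and taste cells, went from 211.6 to 589.9 on average (log2 difference 1.38, limma adjusted p = 0.0283), without overlap. That call was kept only without DBA/2J array 2 (1.57, limma adjusted p = 0.0126); leaving out any other single array gave 1.12 to 1.53 and limma adjusted p from 0.0585 to 0.119. Gng and Gnb genes otherwise ran from -0.33 to 0.47. Of 14 chaperones, arrestins and receptor kinases 0 were called (1 at an unadjusted limma p under 0.05). Ric8b, which folds Gnas and Gnal, had 0.15, with another probe set at 0.64 that did not pass (limma adjusted p = 0.17). On that other probe set the strains did not overlap.

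Of 7 tested partners of olfactory receptors in olfactory neurons, 0 were called and 0 had an unadjusted limma p under 0.05, again too few genes to set apart from the share over all genes. Adcy3, the adenylate cyclase of olfactory cilia, gave 1640, 764.7 and 1041 in A/J and 916.2, 1302 and 955.2 in DBA/2J, which overlapped (log2 difference -0.065, limma adjusted p = 0.95). The olfactory channel subunit Cnga2 was too dim to be tested, where A/J arrays spanned 19.6 to 36.7 and DBA/2J arrays 49.8 to 100.3. Of 37 other olfactory receptor genes with a probe set, a list drawn up after the data had been seen, 11 were bright enough to be tested and 0 were called (0 at an unadjusted limma p under 0.05). Among them Olfr558, a related receptor also known from carotid body work, gave 392.9, 249.8 and 177.9 in A/J and 396.3, 196.5 and 227.9 in DBA/2J, a log2 difference of 0.0067 (limma adjusted p = 0.996).

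Of 11 tested genes of the pathway that degrades Rgs4, Rgs5 and Rgs16 proteins, 0 were called and 1 had an unadjusted limma p under 0.05, and a list this short would hold few calls at the share of all genes. Ado, the dioxygenase, had means of 740.8 and 877.4 (log2 difference 0.24, limma adjusted p = 0.638), and Ate1, the arginyl transferase, had 0.29 (0.482). These are transcripts, and protein levels of the RGS genes were not measured.

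Among the neighbours of the members on the chromosome, 1 stood out. Nelfcd, a subunit of the negative elongation factor and the gene next to Gnas on chromosome 2, rose from 811, 820.9 and 984.9 in A/J to 3962, 2472 and 4302 in DBA/2J (log2 difference 1.98, limma adjusted p = 0.0024). The call was made without any 1 array, with log2 differences from 1.83 to 2.23 and limma adjusted p of at most 0.0204. Npepl1, on the other side of Gnas, had -0.15 (0.786). Nuf2, next to Rgs5 on the side away from Rgs4, had 0.55 and did not pass (0.414). Uchl5, next to Rgs2, had -0.22 (0.671).

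**Figure D4:**
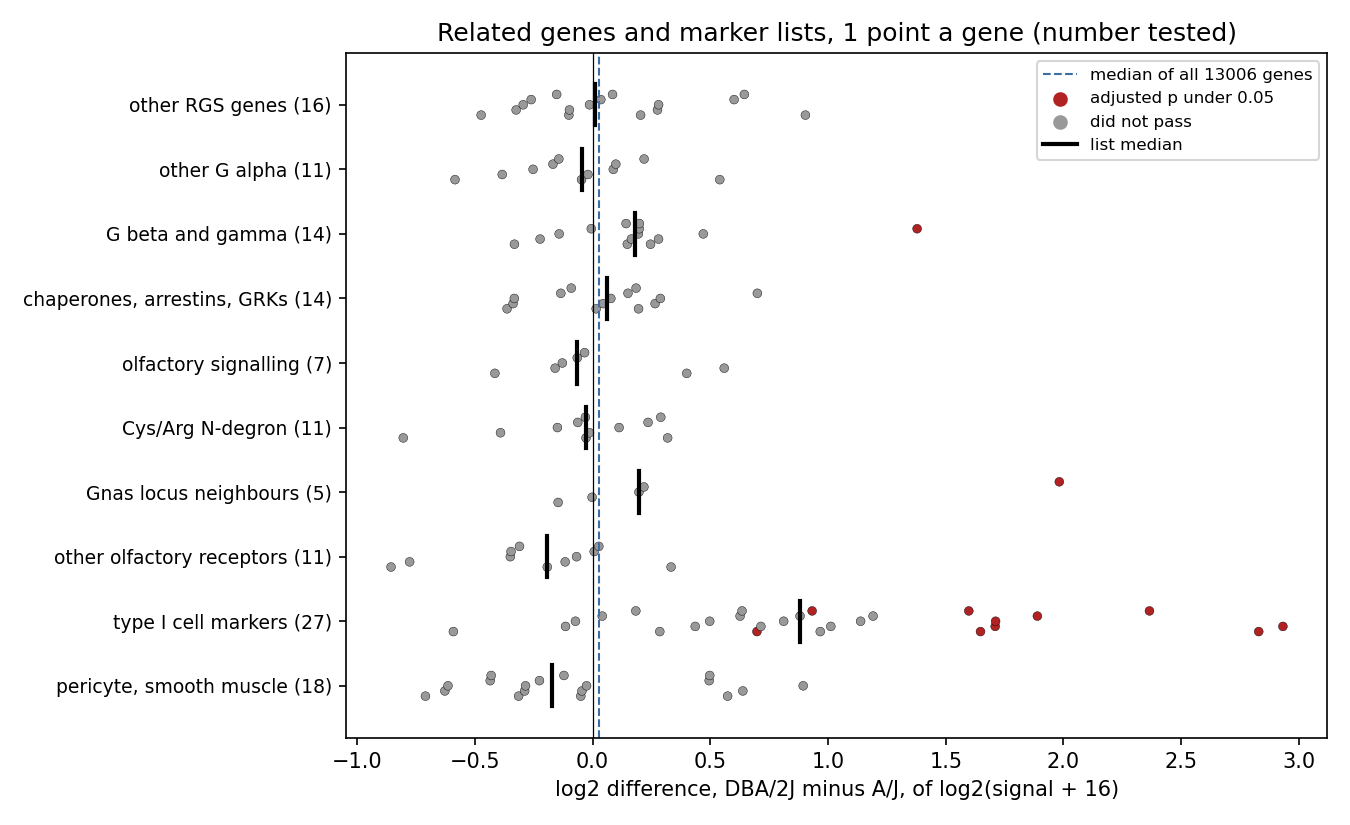
Log2 difference, DBA/2J minus A/J, of each tested gene (points) in lists of related genes and markers, with list medians (black bars) and the median of all genes (dashed line); red marks an adjusted p under 0.05. Gnb3 at 1.38 and Nelfcd at 1.98 are the only red points of the lists drawn, apart from the type I cell markers, whose median is 0.88.

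The genes most like each member over the 6 arrays were ranked by the root mean square difference of log2 values after centring each gene, among 13005 others. For Olfr78 (1440009_at) these were Lamc3, a laminin chain (0.13), Sytl4, an effector of Rab proteins at secretory granules (0.13), Fbln7, a fibulin (0.16), Wnt5a, a secreted signal (0.17), and Morn2 (0.18). For Rgs4 (1416286_at) they were Frrs1 (0.065), the cytochrome Cyp1b1 (0.093), Id2, an inhibitor of basic helix-loop-helix factors (0.13), Gdf10, a BMP family ligand (0.13), and Lrrn1 (0.13). Their log2 differences, from 1.03 (Lrrn1) to 1.54 (Lamc3), follow from the ranking and are no separate result.

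For the remaining members the brightest tested probe set, none of which was called, set the ranking. The nearest genes were Xdh (0.072), Abhd17c, Cyp2j6, Car8 and Tifab for Rgs2 on 1419248_at. For Rgs5 on 1417466_at they were Ssb (0.067), Tnfrsf18, Hacd3, Pcnt and Slc6a3, the dopamine transporter. For Rgs16 they were Laptm5, a lysosomal protein of blood cells (0.076), Has2, Sting1, Lrrc19 and Sez6l. For Gnas they were Tpd52l1 (0.038), Hprt, Nup133, Nek3 and Klhl22, and for Gnal Tgfbi (0.032), Spata31d1d, Rpl13a, Akr1b8 and Kpna2.

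The series states its own rule: at least 6 of 9 array pairs changed, 1.5-fold and a p under 0.05. Taking the unadjusted limma p for the p of that rule, 8 of the 19 probe sets met it, all higher in DBA/2J, where 5.23% of kept probe sets did so in that direction and 4.86% in the other. These were the 7 called ones and 1416287_at of Rgs4. Of the 7, all 9 array pairs passed 1.5-fold in each.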

How the data were processed

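Total RNA of pooled carotid bodies was amplified in repeated rounds of cDNA synthesis and in vitro transcription from an oligo(dT) primer, per the labels' protocols, which favours the 3′ end of transcripts. The deposited values are linear intensity signals, 1 per probe set, which the authors had scaled so that the 2% trimmed mean of each array is 500.0; the software was not given in the sources used here. Array medians ran from 163.6 to 183, and arrays correlated at 0.904 to 0.959 within a strain and 0.878 to 0.924 between strains. DBA/2J array 2 correlated at 0.932 with DBA/2J array 1, 0.904 with DBA/2J array 3 and 0.921 with A/J array 3. It also lay furthest from its strain mean, with a root mean square log2 difference of 0.398 against 0.259 to 0.340 on the other arrays. Names of probe sets are those of the GEO platform annotation, updated by gene identifier with RefSeq (GRCm38.p6): 34945 name 1 gene, 932 several and 9160 are not listed. The 64 control probe sets were left out. The brighter 60% of probe sets by mean log2(signal + 16) were fitted in R 4.3.3 with limma 3.58.1 (trended eBayes, two-sided, no covariate, Benjamini-Hochberg adjustment) and drawn with matplotlib 3.10.9. The fit was tested on simulated data. For gene lists, the brightest tested probe set naming a gene alone stood for it. Exact permutation tests were two-sided over the 20 splits of the 6 arrays.

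The members and lists were chosen with earlier results of these data known. The text names all member probe sets, the 5 genes nearest to each member, up to 4 called genes of each list and a fixed set of pathway and marker genes, of which 1 is not reported here. The neighbours on the chromosome and the comparison of probe sets of 1 gene were added after the values were seen. A number occurs in the titles of A/J and DBA/2J arrays 2 and again of arrays 3; the deviations of these pairs from their strain means correlated at -0.26 and 0.035, so they were not treated as paired. Alternatives were other normalizations, pseudocounts, filters, array weights, left-out arrays and that number as a block.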

Additional observations from a re-analysis of the deposited data

How the results depend on the processing

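The 7 calls among the members kept their direction under every alternative run. The count of 7 was between 4 and 8 without single arrays, 10 with array weights (9 higher and 1 lower), 2 without A/J arrays 1 and 3, which leaves 1 A/J array assumed to vary like the others, and 0 with the number shared by some array titles as a fixed replicate block, a fit with few degrees of freedom that called 0 probe sets in all (1955 at an unadjusted limma p under 0.05, 8 of them members). As a random replicate block it left 7. The 883 calls among all probe sets became 3007 with array weights, 78 without A/J arrays 1 and 3, 0 with the fixed replicate block and 345 to 1338 without single arrays. The 2 called genes of the 7 signalling lists became 5 with array weights, 0 without A/J arrays 1 and 3, 0 with the fixed replicate block and 1 to 2 without single arrays. Under the rule of the series 7 to 10 member probe sets passed. The sign of 13 of 327 recomputed member differences turned, all of uncalled probe sets, whose differences in the main fit ran from -0.29 to 0.016. Gnas 1443375_at was at 0.0046 with a pseudocount of 64, 0.17 with array weights, 0.15 without A/J arrays 1 and 3 and -0.29 to 0.41 without single arrays. Rgs2 1443250_at was at -0.25 with array weights and -0.21 to 0.29 without single arrays, Rgs2 1447830_s_at at 0.027 without A/J arrays 1 and 3 and -0.32 to 0.074 without single arrays, and Rgs2 1419247_at at -0.55 to 0.062 without single arrays. Relative to the type I cell markers 0 of 244 values turned. Relative to the pericyte markers 11 of 244 did: with the marker median Rgs2 1443250_at was at -0.0028 and Gnas 1443375_at at -0.022, and without single arrays Rgs2 1447830_s_at ran from -0.29 to 0.14, Rgs2 1443250_at from -0.24 to 0.31, Rgs2 1419247_at from -0.52 to 0.12 and Gnas 1443375_at from -0.26 to 0.47. The cause of these changes was not tested. Without detection calls, dim signals have no known background.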
